A study of Drosophila melanogaster with 2 samples.

Results

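The Notch pathway was described here through 10 genes, chosen as a fixed list of symbols: the ligand genes Dl and Ser, the receptor gene N, the genes of its processing and regulation fng, kuz, neur and numb, and the nuclear components Su(H), mam and H. All 10 were found among the 13945 protein-coding genes of the annotation, Dl under its annotated symbol Delta. The list was chosen with earlier results of these data known, so its counts are descriptions. Peak summits of the transcription factor Eip74EF were located from 2 kb upstream of each gene to its end. Eip74EF is an ETS-domain protein induced by the hormone ecdysone. Whole Drosophila melanogaster embryos of both sexes, 8 to 16 h old, were taken from a transgenic strain that carried Eip74EF with a C-terminal eGFP tag, and chromatin was precipitated with an antibody against GFP and sequenced (ChIP-seq). The 2 samples, biological replicates 1 and 3, formed 1 group. Both carried the tagged protein, no untagged or control sample was analysed here, and the promoter that drives the fusion is not given in the labels. With whole embryos, the cells in which a site was occupied cannot be told apart. The design allowed no test between groups, so counts are given beside the same share over all protein-coding genes.

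Notch signalling passes from cell to cell by contact. The membrane ligands Delta and Serrate on one cell bind the receptor Notch on its neighbour, the receptor is cut by a metalloprotease and then by gamma-secretase, and its intracellular domain enters the nucleus. There it joins the DNA-binding protein Su(H) and the coactivator Mastermind to switch on targets such as the genes of the Enhancer of split complex. In the embryo the pathway is known for lateral inhibition of neural precursors and for fate choices after asymmetric divisions.

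Of the 10 genes, 6 held at least 1 summit of the thresholded IDR list (irreproducible discovery rate, a measure of how alike peaks rank between replicates). This list equals the 5004 peaks of highest pooled signal, so a single summit in it need not rank alike in both replicates. The 6 genes were mam with 11 summits, kuz and neur with 4 each, fng with 2, and N and numb with 1 each. Dl, Ser, Su(H) and H held none. The share, 60.0% on 10 genes, stood beside 24.7% of all protein-coding genes, but longer genes hold summits more often. Among genes under 10 kb the background was 19.7%, and neither Su(H) nor H, the 2 members of that size, had a summit. Among genes of 10 to 50 kb it was 53.2%, and 4 of 6 members (N, fng, neur and numb, but not Dl or Ser) had one. Among genes of 50 kb or more it was 63.2%, and both members of that size, mam and kuz, had one. Within the 2 longer size classes the members' counts were therefore near the background. The 4 genes with none comprised both ligand genes, the gene of the DNA-binding factor and that of its corepressor adaptor.

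**Figure D1:**
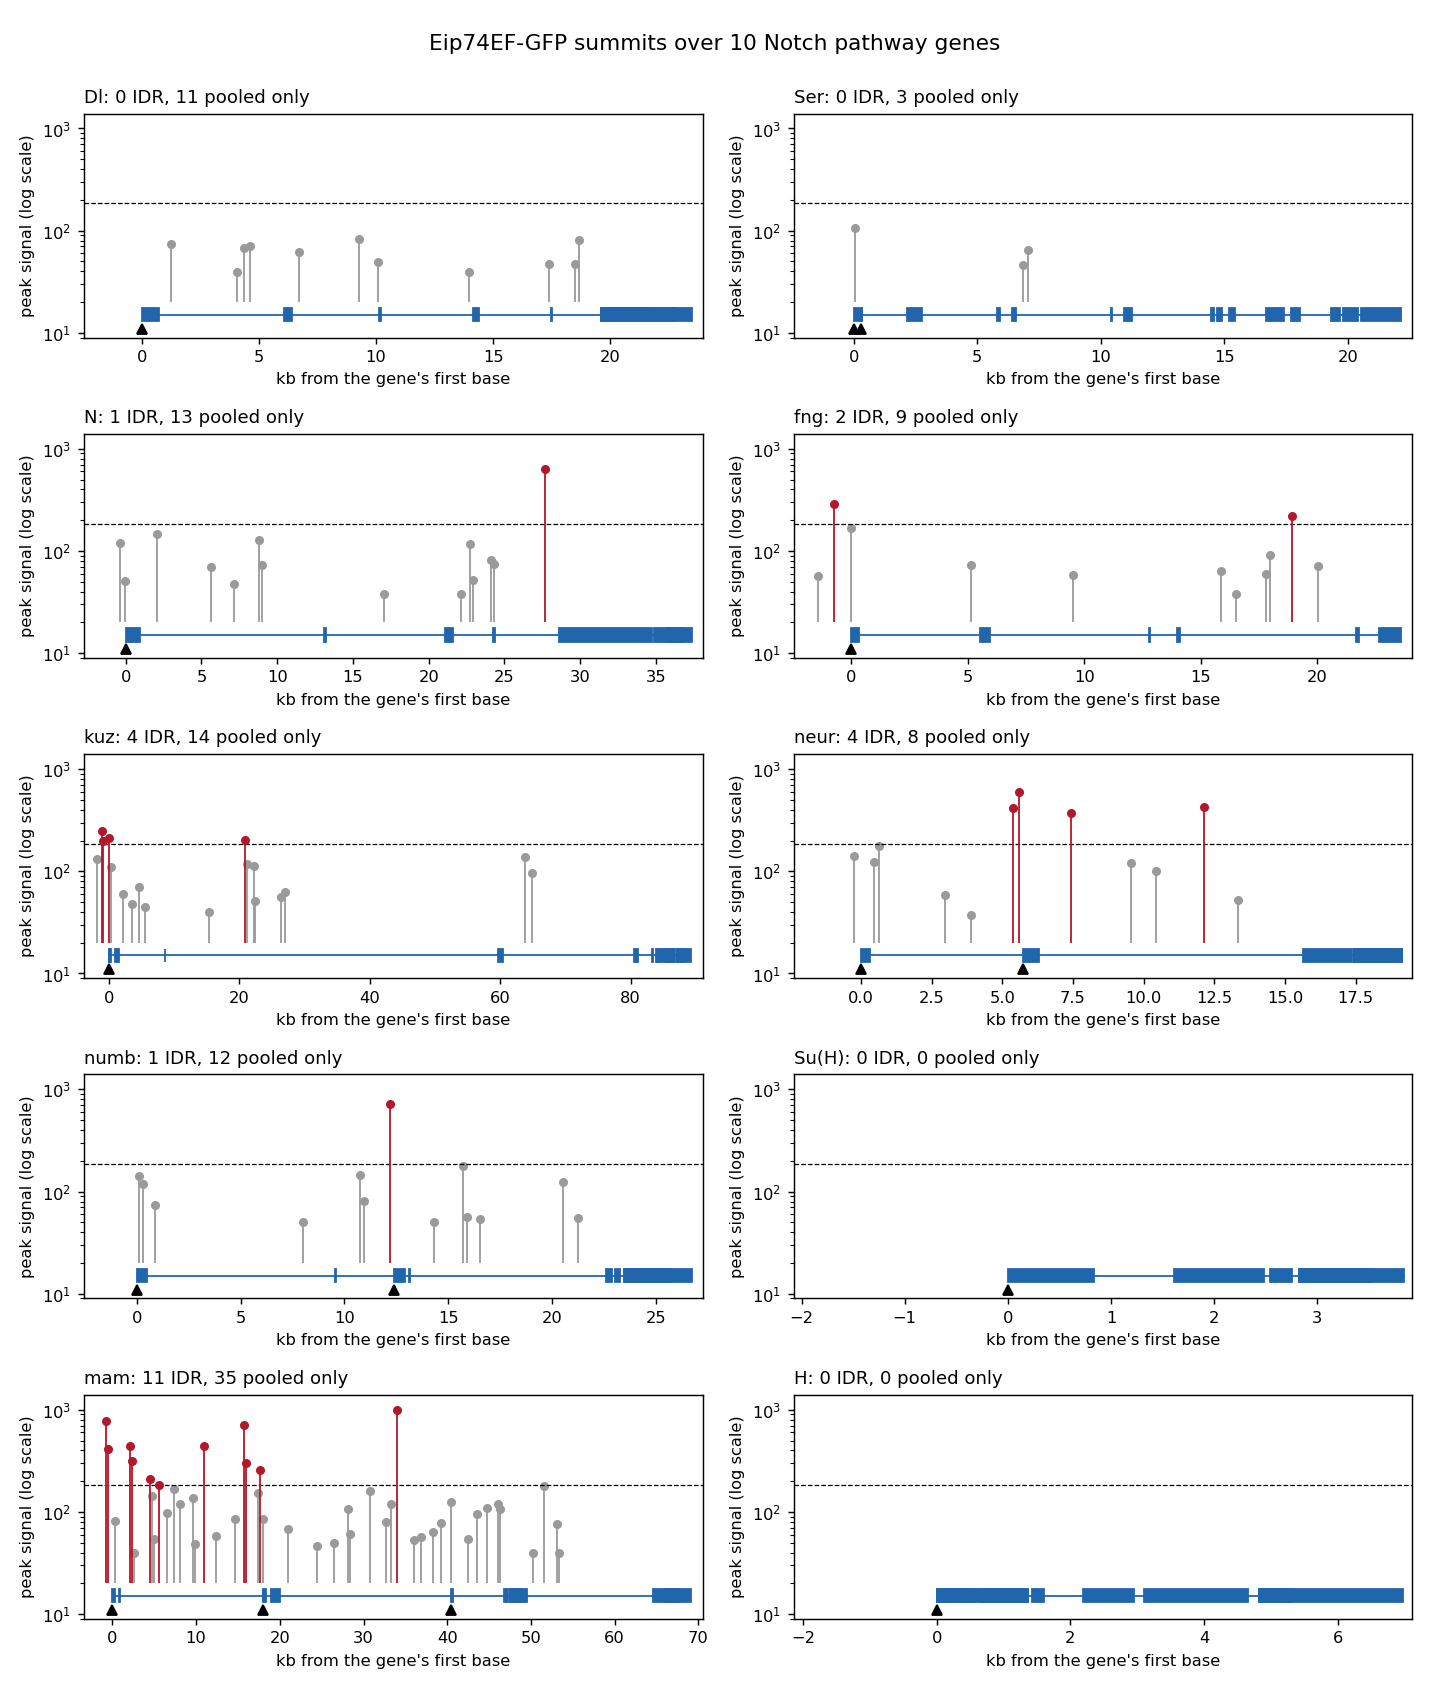
Signal of pooled summits (y axis, log scale) against distance in kb from the first base of each gene, in the direction of transcription, for the 10 genes. Red points are IDR summits and grey points are pooled summits below the IDR list, the dashed line marks the lowest IDR signal (184.6), blue boxes are exons and triangles are transcription start sites. Of the 11 summits of mam, 2 lie before the gene, 8 in its intron 2 and the strongest 33959 bp into it, and Su(H) and H show no point.

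Sequences of 101 bases centred on 5 summits are shown because they span the kinds of place where most summits lay, namely inner promoters and introns, and because 1 of them holds a complete ETS consensus. They are on assembly dm6, in the direction of the gene's transcription, and outside annotated untranslated regions. Capitals mark the ETS core GGAA or its reverse complement TTCC, and in the neur intron the full reverse complement of the consensus CCGGAAGT.
neur intron, chr3R:9027274-9027374: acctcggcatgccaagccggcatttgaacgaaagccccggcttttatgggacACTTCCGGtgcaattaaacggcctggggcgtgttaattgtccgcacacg
neur inner promoter, chr3R:9033843-9033943: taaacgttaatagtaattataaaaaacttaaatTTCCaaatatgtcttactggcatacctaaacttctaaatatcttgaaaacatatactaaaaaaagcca
numb inner promoter, chr2L:9449605-9449705: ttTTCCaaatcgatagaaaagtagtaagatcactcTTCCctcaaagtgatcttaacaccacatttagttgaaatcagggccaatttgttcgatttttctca
N intron, chrX:3162488-3162588: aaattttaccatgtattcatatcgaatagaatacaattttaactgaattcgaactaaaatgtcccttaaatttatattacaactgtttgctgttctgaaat
kuz intron, chr2L:13571007-13571107: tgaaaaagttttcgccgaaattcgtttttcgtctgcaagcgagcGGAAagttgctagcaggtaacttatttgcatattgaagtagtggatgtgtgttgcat

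The core lay near the centre of 4 of these windows and was absent from that of N. The 5 were selected, in part for a motif, and do not stand for all 23 summits of the 6 genes. Of those 23, 9 (39.1%) had the core within 25 bp, beside 33.6% of all IDR summits. At the neur intron summit the consensus was centred 5.5 bp from the summit, at the kuz intron summit the core was 4.5 bp away, and at the neur and numb inner promoters the nearest cores were 15.5 and 13.5 bp away. Over all 23 summits of the 6 genes, GGAA on either strand lay within 50 bp of 13 (56.5%, exact 95% binomial interval 34.5 to 76.8%), a share close to the 56.2% of all 5004 IDR summits, as this short string is common. The longer CGGAAG, which contains the core, was present at 3 summits (1 in neur and 2 in mam), or 13.04%, beside 7.31% of all IDR summits. CCGGAAGT, which contains CGGAAG, was present at 2, the neur intron and a mam intron summit, beside 38 of all 5004 (0.759%). The Su(H) site was searched as the 4 strings CGTGGGAA, TGTGGGAA, CGTGAGAA and TGTGAGAA on both strands. It was found at 0 of the 23 summits and at 0.739% of all IDR summits. For the 23, an approximate upper limit, 3 divided by the number of summits, is 13.04%. The first 2 of these strings overlap the ETS core. A string match describes the sequence and does not show which factor was there. The median GC content within 50 bp was 37.6% at the 23 summits, from 16.8% in the fng intron to 60.4% upstream of kuz, beside 34.7% over all IDR summits.

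Neither ligand gene held an IDR summit. Dl (FBgn0000463, 3R 19302731 to 19326217, minus strand) encodes the main ligand of lateral inhibition. Its window held 0 IDR and 11 pooled summits, all intronic, with signals from 39.5 to 82.95, where the lowest IDR signal was 184.6. Of these, 3 had a summit within 100 bp in both replicate lists. The replicates differed at the Dl promoter. Replicate 3 listed a summit 85 bp upstream of the transcription start site (TSS), at 3R 19326302, with a signal of 122.4 and rank 4823 of 30000, whereas replicate 1 listed none within 500 bp of that TSS and the nearest pooled summit was 1331 bp away. The nearest IDR summit lay 9487 bp downstream of the gene's end (3R 19293244, signal 201.5).

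Ser (FBgn0004197, 3R 27172090 to 27194267, minus strand) encodes the second ligand. It held 3 pooled summits and no IDR summit. The strongest, with a signal of 106.8, lay 25 bp downstream of a TSS, in the 5′ UTR of the transcript Ser-RB, and the other 2 (64.1 and 46.4) lay in intron 4. Close to the same promoter, replicate 1 listed a summit of signal 58.1 (rank 7515) and replicate 3 one of 58.4 (rank 13317), 176 bp apart. Apart from the Dl promoter summit of replicate 3, no replicate summit of either ligand gene was among the top 5004 of its list.

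N (FBgn0004647, X 3134870 to 3172221, plus strand), the receptor gene, held 1 IDR summit among 14 pooled ones. It lay in intron 5 of 8, at X 3162538, 27668 bp downstream of the only TSS, with a signal of 633.4 and rank 562 among all 5004. Replicate 1 gave it a signal of 223.7 (rank 599) and replicate 3 428.3 (rank 505), so its place in both lists was alike. Signal scales differ between the lists, so ranks are given beside the signals. The next strongest N summit, in intron 1, 2037 bp from the TSS, had a pooled signal of 146.9 and rank 6940. Both pooled summits within 500 bp of the N TSS were weak. The one 365 bp upstream (118.6) was matched in replicate 3 alone and the one 16 bp away (50.3) in replicate 1 alone.

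Genes that act on the receptor gave mixed results. The product of fng is a glycosyltransferase that modifies Notch in the Golgi and shifts its response between ligands. The gene (FBgn0011591, 3L 20925891 to 20949512, minus strand) held an IDR summit 732 bp upstream of its TSS (signal 285.3) and one in intron 4 of 6 (3L 20930597, signal 219.2), 18915 bp from the TSS. In replicate 1 these had signals of 123.5 and 78.6 (ranks 1975 and 4564) and in replicate 3 of 166.9 and 142.2 (ranks 2945 and 3830). The first ranked 2458 and the other 3839 among the 5004 IDR peaks, and the upstream one was the stronger in both replicates. One more fng summit, 19 bp from the TSS, had a pooled signal of 168.6, below the IDR list, and was matched in replicate 1 only (54.7).

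The metalloprotease encoded by kuz makes the first cut in Notch after ligand binding. The gene (FBgn0259984, 2L 13550139 to 13639411, plus strand) is the longest of the 10, at 89.3 kb, and all 5 of its transcripts start at 1 TSS. One of its 4 IDR summits lay 29 bp downstream of that TSS, in the 5′ UTR (2L 13550168, signal 210.2), the only one of the 23 in an untranslated region of a member's own transcripts. Its replicate signals were 75.0 in replicate 1 and 137.7 in replicate 3 (ranks 4974 and 4027). Another lay in intron 3, an intron of 50958 bp, 20918 bp from the TSS (2L 13571057, signal 201.7). The remaining 2, with signals of 249.3 and 198.4, lay 266 and 64 bp from the TSS of the neighbouring gene B4, which is transcribed the opposite way, and 1077 and 875 bp upstream of kuz. They can be counted for either gene, and the weaker of them had no match in replicate 1. All 4 summits of kuz ranked between 3105 and 4495 of 5004, so none was in the stronger part of the list.

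neur encodes a ubiquitin ligase that promotes endocytosis of Delta in the signal-sending cell. The gene (FBgn0002932, 3R 9020348 to 9039471, minus strand) has an outer TSS, used by 3 transcripts, and an inner TSS 5740 bp further on, used by 2. Of its 4 IDR summits, 2 lay within 500 bp of the inner TSS and 2 further downstream. Signals were 593.8 at 162 bp upstream of it (3R 9033893) and 412.4 at 365 bp upstream (3R 9034096). Of the remaining 2, one lay 1704 bp downstream of it (3R 9032027, 370.0) and the other 6407 bp downstream (3R 9027324, 421.0). All 4 fell inside the first intron of the long transcripts, which spans 80.05% of neur-RC. No IDR summit lay within 500 bp of the outer TSS, where the pooled list held 2 summits of 141.9 and 124.1, both also within 500 bp of a TSS of the overlapping gene hyx. The strongest neur summit had signals of 232.3 in replicate 1 (rank 552) and 352.7 in replicate 3 (rank 777). The summit beside it, at 3R 9034096, had 184.9 in replicate 1 (rank 895) but 119.7 in replicate 3 (rank 5005). It was the only one of the members' 22 matched summits with a lower signal in replicate 3, as were 136 of the 4630 matched IDR summits (2.94%).

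numb encodes an inhibitor of Notch that is passed to one daughter cell in asymmetric divisions. Like neur, numb (FBgn0002973, 2L 9437469 to 9464184, plus strand) has an outer and an inner TSS, and its single IDR summit lay at the inner one, 175 bp upstream of the start of numb-RA and numb-RD and inside intron 2 of numb-RB (2L 9449655). The signal was 727.0 (rank 408), with 273.1 in replicate 1 (rank 375) and 459.7 in replicate 3 (rank 426). At the outer TSS the pooled list held 2 weaker summits, of 140.9 and 119.5, the first matched in replicate 1 only and the second in replicate 3 only. The strongest numb summit below the IDR list, 3332 bp downstream of the inner TSS, had a pooled signal of 179.1 but was matched in replicate 3 only (172.1).

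Among the nuclear components, Su(H) and H held no pooled summit and mam held the most. Su(H) (FBgn0004837, 2L 15039488 to 15043334) encodes the DNA-binding factor of the pathway and H (FBgn0001169, 3R 20621938 to 20628915) the adaptor through which Su(H) represses targets without signal. Both are short, at 3.85 and 6.98 kb. Replicate 1 listed 2 weak summits for Su(H), 5 bp from its TSS (30.8) and within 500 bp of the TSS of the neighbour CIAPIN1 (41.0), and replicate 3 listed none. For H neither replicate listed any. As all lists but the IDR list stop at exactly 30000 peaks, weaker signal below that limit would not be seen. A pooled summit was found in 48.9% of all protein-coding genes, beside 8 of the 10 members. All 8 are 10 kb or longer and Su(H) and H are shorter. The pooled share was not computed by length class, so this comparison is not matched for length.

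mam (FBgn0002643, 2R 13991203 to 14060356, plus strand) encodes the coactivator Mastermind, which stabilises the complex of Su(H) and the Notch intracellular domain. Its 11 IDR summits made up 47.8% of the 23. Only 17 protein-coding genes held more. Its density, 1.55 summits per 10 kb, was exceeded by 9 of the 307 genes of 50 kb or more, whose median was 0.174. Of the 11 summits, 2 stood at TSSs of the neighbour RN-tre, and counting summits within 250 bp once gave 8 regions. Neither standing was recomputed with these changes. The pooled list added 35 weaker summits along the gene. Introns held 9 of the 11. Intron 2 of the long transcript mam-RA, 18058 bp or 26.8% of its span, held 8, and intron 3, 27528 bp or 40.8% of it, held 1. None of the IDR summits lay in the last part of the gene, beyond 33959 bp from its first base, where the pooled list held weaker ones, 4 of them in intron 4.

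The strongest mam summit, in intron 3 at 2R 14025162, 6501 bp upstream of the TSS of mam-RC, had a signal of 985.3 and rank 212, the highest of the 10 genes. It had 354.7 in replicate 1 (rank 223) and 646.0 in replicate 3 (rank 198). In intron 2, the summit at 2R 14006969 reached 707.2 (232.5 in replicate 1 and 480.0 in replicate 3). The intron 2 summit with the complete ETS consensus was that at 2R 13993326, 2123 bp from the first TSS, with a signal of 442.7 (174.7 in replicate 1 and 278.5 in replicate 3). The summit at 2R 14008857, with a signal of 258.3, lay 342 bp upstream of the TSS shared by mam-RB and mam-RD, and was the only IDR summit within 500 bp of an own TSS of mam. Its signals in both replicates were nearly equal, 123.7 and 126.1, but they correspond to rank 1971 in replicate 1 and 4621 in replicate 3. The 2 summits upstream of the gene, of 776.1 and 416.6, were 785 and 584 bp from the first TSS of mam but 18 and 88 bp from TSSs of the divergent gene RN-tre, so they stood at a promoter of that neighbour. The weakest, at 2R 13996800 (185.4, rank 4968), was just above the end of the IDR list.

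By location, 5 of the 23 IDR summits lay within 500 bp of an own TSS, 4 within 500 bp of another gene's TSS (B4 and RN-tre), 13 in introns away from these and 1 upstream (fng). Counting every summit inside an intron, also those near a TSS, gave 17 (73.9%, exact 95% interval 51.6 to 89.8%). Over the 4445 IDR summits in the windows of protein-coding genes the share was 65.9%, within that interval. This background covers genes of every length, so it is not matched for length. The interval treats summits as independent, though several share a gene or stand in pairs, and is not a test. Of the 17, 9 were in mam, and the remaining genes had 8 of 12. No IDR summit lay in coding sequence of the 10 genes. A summit near an own TSS was found for 4 of the 10 genes (neur, kuz, numb and mam), or 40.0%, beside 15.6% of all protein-coding genes. By length, none of the 2 genes under 10 kb had one (background 13.001%), 2 of the 6 of 10 to 50 kb did (31.0%), and both of 50 kb or more did (32.9%). Above the median rank of the IDR list 2 genes were left, neur and numb, a count for which no background was computed. The summit near an own TSS was at an inner TSS in neur, numb and mam, and kuz has only 1 TSS. Counted by TSS, 4 of the members' 15 had an IDR summit within 500 bp and 12 had a pooled one, those of Dl, Su(H) and H being the exceptions. The same shares over all annotated TSSs were not computed, so these counts have no background. Pooled summits at the TSSs of N, fng and Ser, the outer TSS of numb and the first of mam were each matched in 1 replicate only.

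**Figure D2:**
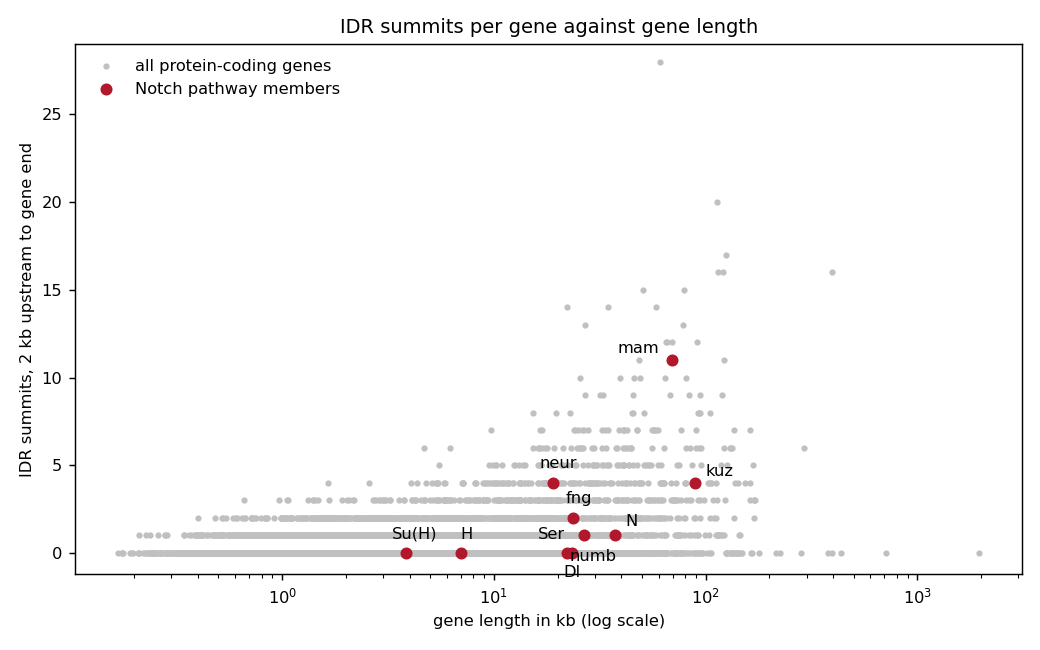
IDR summits per gene, the 2 kb before it included (y axis), against gene length in kb (x axis, log scale) for all protein-coding genes in grey and the 10 Notch pathway genes in red. With 11 summits mam stands high among genes of its length. Dl and Ser, of 23.5 and 22.2 kb, hold 0, and of all genes of 10 to 50 kb 53.2% hold at least 1.

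Summit density varied widely between genes of like length. In the class of 10 to 50 kb, with a median of 0.304 IDR summits per 10 kb over 1670 genes, neur had 1.89 and 130 genes were denser. The value was 0.781 for fng (478 genes denser), 0.348 for numb (816) and 0.254 for N (864). Among genes of 50 kb or more, kuz had 0.438, and 81 of 307 were denser. Some summits stood in pairs. Between 201 and 222 bp separated the members of 5 pairs, 3 in mam and 1 each in neur and kuz, and counting each pair once left 18 regions. No 2 summits anywhere in the IDR list were closer than 199 bp, so the spacing of such pairs is near the closest that the list holds.

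Both replicates listed nearly all of the members' IDR summits. A summit lay within 100 bp in both replicate lists for 22 of 23 (95.7%), beside 92.5% of all IDR summits. Part of this is built in, as the IDR list holds the strongest peaks of both replicates pooled. For matched summits of the members the ratio of replicate 3 to replicate 1 signal had a median of 1.75, from 0.648 to 2.75, close to the 1.78 over all matched IDR summits. Agreement was lower for weaker summits. Of the 105 pooled summits below the IDR list, 43 were matched in both replicates, 56 in 1 and 6 in neither. By location, 89 of them were intronic and 12 near an own TSS. The same shares over all pooled peaks below the IDR list were not computed, so these counts describe the members only. Each replicate list stops at 30000 peaks, so a weaker replicate summit would not be listed. The members' IDR summits had a median signal of 370.0, beside 282.5 for the whole list, and 15 of 23 were above that median, 8 of the 15 in mam.

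**Figure D3:**
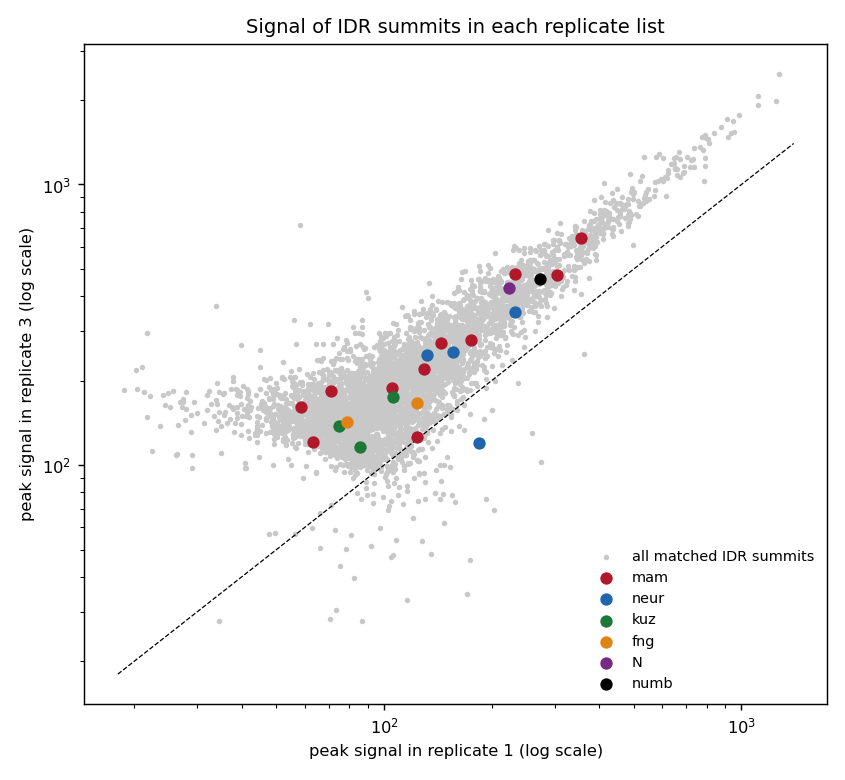
Peak signal in replicate 1 (x axis) and replicate 3 (y axis), both on log scales, for the 4630 IDR summits matched within 100 bp in both lists (grey) and the 22 matched summits of the Notch pathway genes (coloured by gene). The dashed line marks equal signal, and of the coloured points 1 neur summit lies below it.

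A wider list of 56 pathway genes, grouped by role, showed where else summits lay. Of these, 21 (37.5%) held an IDR summit. Most are short, and of the 43 under 10 kb, 14 (32.6%) held one, beside the 19.7% of all genes of that size. The list was chosen with earlier results of these data known, so this comparison is a description only. Of those 14, 6 belong to the clustered Enhancer of split complex, and the other 32 short genes gave 8. The count of 21 fell to 8 with summits inside gene bodies alone and to 13 without summits near another gene's TSS. Shares over all protein-coding genes were not computed for these settings, so the lower counts have no background. Among nuclear cofactors 4 of 7 did, 3 of the 4 genes of 10 kb or more and 1 of the 3 shorter ones, which is near the shares for genes of those lengths. They were led by nej, which encodes the acetyltransferase CBP (signal 1069, upstream of the gene), and Smr, a corepressor gene with 7 summits (strongest 683.0, intronic). Next came gro, the gene of the corepressor Groucho (527.6, own TSS), whose summit was matched in replicate 1 only. Among target genes, all of them under 10 kb, 6 of 13 held an IDR summit. They were led by E(spl)m7-HLH (880.3) and E(spl)m3-HLH (821.4), which encode basic helix-loop-helix repressors, and E(spl)malpha-BFM (665.2), of the Bearded family.

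The other role groups were described in the same way. The background shares were 19.7% for genes under 10 kb, 53.2% for 10 to 50 kb and 63.2% for 50 kb or more. In receptor trafficking and stability 3 of 7 genes held a summit, the neurogenic gene big brain, bib (492.8), the receptor trafficking gene deltex, dx (313.5, at a TSS of the neighbour RpL7A) and the ubiquitin ligase gene Nedd4 (294.1). In receptor cleavage 2 of 8 did, the gamma-secretase subunit gene aph-1 (672.5) and the tetraspanin gene Tsp86D (271.8), both within 500 bp of another gene's TSS as well as their own. In receptor glycosylation 2 of 6 did, the sugar nucleotide synthesis gene Gmd (617.3) and the O-glucosyltransferase gene rumi (316.0), again at promoters shared with other genes. The rumi summit was matched in replicate 1 only. Only mib1 (280.9), a ligase gene for the ligands, held a summit among 6 genes of ligand ubiquitination and the Bearded family. Of the 9 genes of asymmetric division and sensory organs 3 did, the polarity genes baz (1612, intronic) and par-6 (378.3, at a TSS of CG8188) and the spindle orientation gene insc (355.5, intronic). By length, the cleavage and glycosylation genes are all under 10 kb. In trafficking, 1 of 5 genes under 10 kb and 2 of 2 longer ones held a summit. In the ligand ubiquitination group it was 1 of 5 and 0 of 1, and in asymmetric division 1 of 3 and 2 of 6. The last share is below the background of both longer classes, on few genes.

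**Figure D4:**
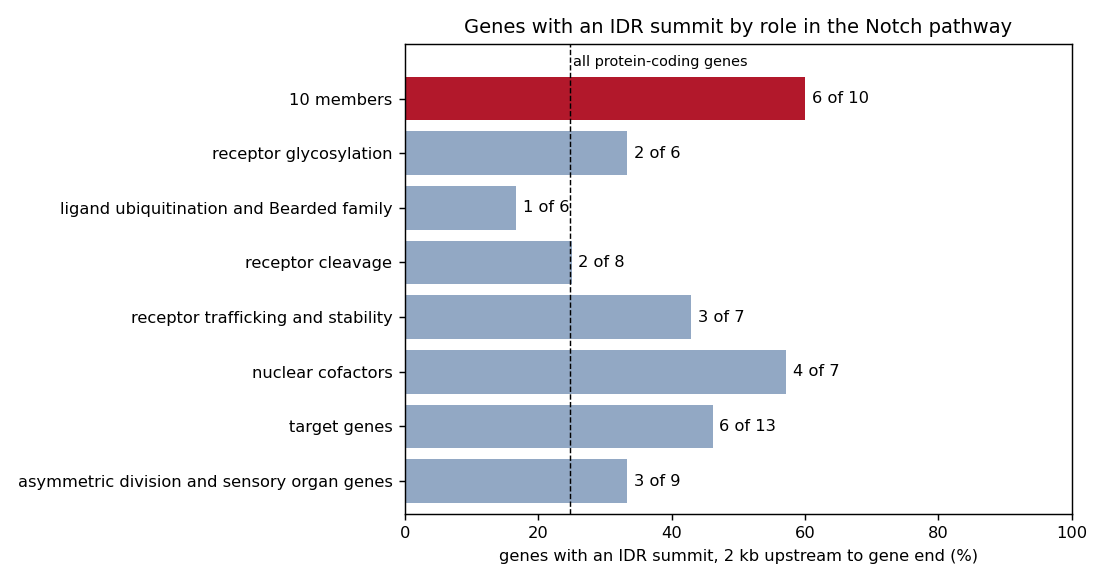
Percent of genes whose window, the gene and 2 kb before it, held an IDR summit (x axis, from 0) for the 10 members (red) and for 7 role groups of the wider pathway list (blue), with counts beside the bars. The dashed line marks all protein-coding genes, 24.7%, and groups differ in gene length, which moves this share.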

How the data were processed

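Eip74EF-GFP ChIP-seq peak lists of 2 embryo replicates were used. File descriptions deposited with the samples state that peaks came from the alignments of each replicate, or of both pooled, with 1 further file common to all, and that the IDR list came from those lists (assembly dm6). The labels name a possible control experiment but do not say whether that file is from it. Peak caller, version and IDR threshold: not given in the sources used here. The deposited signal of each peak is the authors' value, on a scale of its own in every list. The lists hold 30000 peaks, except the IDR list, which holds the 5004 peaks of highest pooled signal. Depth per sample is unknown, and binomial intervals cover counting error over summits only.

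Summits were placed on Ensembl release 115 (BDGP6.54), which has dm6 coordinates, with Python 3.11.15, pandas 2.3.3 and scipy 1.17.1, and sequences were read from the matching RefSeq genome. Sequences of some summits are not reported here. A summit belonged to a gene from 2 kb upstream to its end, to a promoter within 500 bp of an annotated TSS, and to a replicate summit within 100 bp. Summits could count for 2 genes. Counting was tested on simulated summits. No test between groups was possible. Named were the 10 members, neighbours whose TSS lay at a counted summit, and up to 3 genes per role with the strongest IDR summit. Dl and 2 of 56 wider pathway genes were matched by synonym. Members and lists were chosen with earlier results of these data known.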

Additional observations from a re-analysis of the deposited data

How the results depend on the processing

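Among IDR peaks ranked in the stronger part of the list, above its median, 5 of the 10 members held a summit (kuz did not), the 23 summits became 15, and the members with a summit at an own TSS fell from 4 to 2 (neur and numb). Leaving mam out, chosen after seeing the data, left 12 summits. With the strongest 5004 peaks of a single replicate in place of the IDR list, the members with a summit numbered 6 to 7, their summits 23 to 24, the members with one at an own TSS 4 to 5, the intron share 73.9 to 75.0% and the wider pathway genes 20 to 23. The added member was Dl, in replicate 3. Of the wider list, 21 of 56 genes became 8 within gene bodies alone, 28 with 5 kb upstream and, with the window kept, 13 without summits near another gene's TSS. With 10 kb added on either side, also chosen after seeing the data, 7 members held a summit, Dl again being the added one. For none of these settings was the share over all protein-coding genes computed, so the changed counts have no background. Summits matched in both replicates numbered 17 within 50 bp and 23 within 250 bp. No paired analysis was possible because there is only 1 group. With 2 replicates and unknown depth, a gene without a summit cannot be called unbound.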

Other observations

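The Enhancer of split complex, a well-known set of Notch targets, was described beyond the genes named by rule, after its values had been seen. Of its 11 listed genes, 6 held an IDR summit, 7 distinct summits in all, beside 19.7% of all genes under 10 kb. All 7 lay upstream, so 0 of the 11 genes held a summit within the gene body. Of the 7 basic helix-loop-helix genes, 4 had a summit within 500 bp of the start site, beside 13.001% of all genes under 10 kb. All 4 stood upstream of it: 351 bp for E(spl)mdelta-HLH (signal 364.9), 368 bp for E(spl)mbeta-HLH (251.5), 376 bp for E(spl)m7-HLH (880.3) and 381 bp for E(spl)m3-HLH (821.4). The 500 bp limit bounds these distances in advance, and they were not compared with those at other promoters. The E(spl)mdelta-HLH summit was also within 500 bp of a TSS of CG43116, so it can be counted for either gene. The strongest of the 4 summits, at E(spl)m7-HLH, ranked 304 in replicate 1 and 259 in replicate 3. Of the 4 Bearded family genes, 2 held a summit, further out, at 535 bp for E(spl)m2-BFM (403.3) and 1787 bp for E(spl)malpha-BFM (665.2). E(spl)m3-HLH held a second, weaker summit 1356 bp upstream (191.7), matched in replicate 3 only. The Su(H) strings were found within 50 bp of none of the 7 summits, for which the same approximate upper limit is 42.9% and is rough on so few summits.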
